A study of Homo sapiens with 24 samples.

Results

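PM and PE, derivatives of the established breast epithelial line MCF10A, which does not form tumours, were compared while both carried a control hairpin. The line labelled PM is described in the labels as transformed by MYC and the line labelled PE as not transformed, and the labels do not spell out these letters. The 8 libraries described here are the 4 of PM and the 4 of PE whose hairpin is directed against GFP, chosen by their labels from the 24 libraries of the series. The other 16 libraries hold the same lines with hairpins A and B against the chromatin remodeller CHD1 and serve as separate libraries for the same line comparison. Every culture, controls included, was given doxycycline at 50 ng/ml for 72 h, in medium with horse serum at 5%, EGF at 20 ng/ml, hydrocortisone at 500 ng/ml, cholera toxin at 100 ng/ml and insulin at 10 µg/ml, and poly(A) RNA was taken from 200000 cells. The labels name the 4 libraries of a group biological replicates. They do not say whether these came from separate cultures, whether a line is 1 clone or a pool, or how MYC is expressed in PM. The p-values therefore measure the spread between these libraries.

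MYC is a transcription factor that binds DNA with its partner MAX at the E-box CACGTG. It is known for raising genes of ribosome production, translation, nucleotide synthesis and mitochondria, and members of the MXD family compete with it for MAX. In mammary epithelium, basal cells rest on a basement membrane of laminins and collagens through hemidesmosomes and integrins, and neighbouring cells are joined by E-cadherin, desmosomes and tight junctions.

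Total counts ran from 4.14 to 66.2 M in PE and from 27.9 to 80.2 M in PM. Replicate 1 of PE, the shallowest of all 24 libraries, had a count for 18380 genes, against 22014 to 24127 in the libraries of PM. A count of 0 in that library allows a level of up to 0.668 CPM (counts scaled to library size), the level of 3 counts, against 0.0457 to 0.155 CPM in the other libraries of PE, and such limits cover counting error only. Total count, genes with a count, the mitochondrial share and the share of the top 100 genes did not pass an exact two-sided permutation test (p between 0.0571 and 0.371, adjusted p between 0.229 and 0.371 over the 4 measures). The smallest p that this test allows is 0.0286, so a difference in 1 measure alone could not have passed after adjustment. Log levels of 13895 genes correlated at 0.944 to 0.987 within PE, at 0.983 to 0.991 within PM and at 0.908 to 0.957 between the lines.

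MYC transcript stood at 248.5, 284.5, 283.6 and 283.5 CPM in replicates 1 to 4 of PE and at 504.8, 550.4, 530.1 and 488.2 CPM in those of PM. All 4 libraries of PM lay above all 4 of PE. The means were 275 ± 17.7 and 518 ± 27.4 CPM (SD, n = 4 each), a ratio of 1.88, and the change passed the edgeR quasi-likelihood test (log2 0.91, SE 0.06, Benjamini-Hochberg adjusted p = 1.35e-13; exact two-sided permutation p = 0.0286, the smallest that 70 assignments allow). MYC is annotated in GRCh38.p14 at chr8:127735434-127742951, and a count over the gene does not separate transcripts of the resident locus from those of an introduced copy. CHD1, at chr5:98853985-98929007, stood at 86.8, 76.5, 74.2 and 77.6 CPM in PE and at 84.9, 95.3, 86.3 and 93.4 CPM in PM. Its groups overlapped, and its log2 difference of 0.20 (SE 0.10) did not pass (adjusted p = 0.14, unadjusted p = 0.0477, exact permutation p = 0.0857).

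Of 20820 genes tested, 5309 differed between the lines at an adjusted p under 0.05 in the edgeR quasi-likelihood test (25.5%). In PM 2944 were higher (14.1%) and 2365 lower (11.4%), and 4826 of them are protein-coding. Which direction holds more calls depends on the scaling: DESeq2 size factors gave 2473 higher and 2727 lower, library sizes alone 2555 and 2692, and DESeq2's Wald test 2592 and 2923. The higher calls were mostly small and the large calls mostly lower: of the 1356 genes that differed at least 2-fold (6.51%), 439 were higher and 917 lower. The median size of a called change was 0.50 on the log2 scale and the median change of all genes tested 0.02. The libraries of the lines did not overlap for 5178 of the genes tested (24.9%), 4210 of them called. Without replicate 1 of PE the number called was 4938 instead of 5309, and the higher share of the calls 49.1% instead of 55.5%. Testing only genes that reach 5 CPM in 4 libraries left 724 calls of at least 2-fold, 222 higher and 502 lower. The plot of change against level shows rises of moderate size among abundant transcripts and large falls among transcripts of lower abundance.

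**Figure D1:**
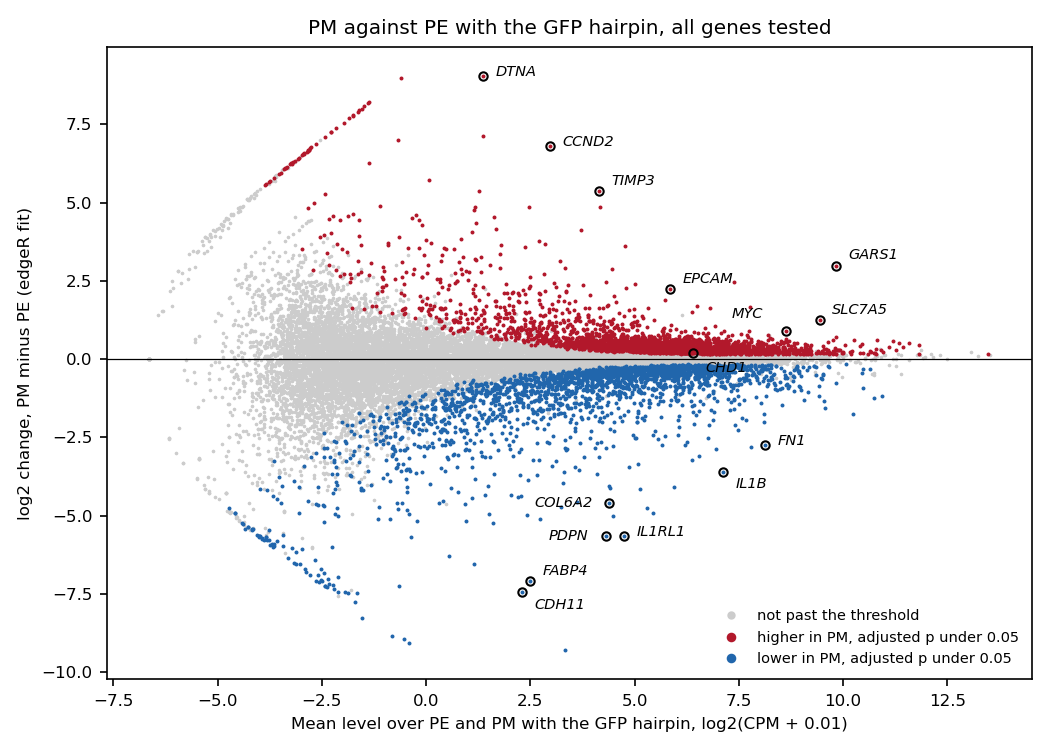
The log2 change of each tested gene, PM minus PE with the GFP hairpin, against its mean level as log2(CPM + 0.01), with coloured points for genes of adjusted p under 0.05. MYC lies at 0.91 and CHD1 near 0, and the falls of CDH11 and FABP4 are below −7 on the log2 scale; the straight edges are genes with no count in 1 of the lines.

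The largest rises were of genes with few or no counts in PE. CCND2, cyclin D2, a G1 cyclin at chr12:4273762-4305353, stood at 0.223, 0.155, 0.122 and 0.138 CPM in PE and at 17.0, 12.8, 13.8 and 18.4 CPM in PM. DTNA, at chr18:34493312-34891844, encodes alpha-dystrobrevin of the dystrophin complex and had 1 count in all 4 libraries of PE, in replicate 3, and 1054 counts in PM. This gives a ratio of 708, with an exact 95% interval of 127 to 28000 from counting error alone, and the levels in PM were 6.05, 4.64, 5.26 and 4.55 CPM. EPHA3, an ephrin receptor at chr3:89107621-89482134, had 5 counts in PE, all in replicate 3, and 1092 in PM, a ratio of 147 with a counting interval of 62.7 to 453. Its libraries of PM lay between 4.32 and 5.64 CPM. In each of these genes every library of PM lay above every library of PE, also where DTNA and EPHA3 were at 0 in replicate 1 of PE and up to 0.668 CPM is allowed. Libraries that do not overlap were a condition for naming a gene among the largest rises or falls.

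TIMP3, an inhibitor of matrix metalloproteases, stood at 2.23, 2.27, 0.366 and 0.473 CPM in PE and at 30.9, 29.4, 29.6 and 46.8 CPM in PM. LAD1, ladinin 1 of the basement membrane zone, went from 7.34, 4.96, 4.13 and 2.50 CPM to 50.4, 57.7, 42.4 and 50.2 CPM, and LUM, the small proteoglycan lumican, from 0, 0.413, 0.853 and 0.375 CPM to 5.84, 4.52, 5.65 and 10.1 CPM. TRIM15 and LUM were at 0 in replicate 1 of PE, where 3 counts amount to 0.668 CPM, and TRIM15 also in replicate 4. HBA2 and HBA1, the alpha-globin genes, were at log2 changes of 4.86 (SE 0.35) and 4.14 (SE 0.35). Their sequences are near-identical, so the share of reads given to each is uncertain, although both were higher in every library of PM. The remaining genes among the 12 largest rises were FAM184B at 4.87 (SE 0.34), the carrier SLC16A9 at 3.77 (SE 0.22), TRIM15 at 3.66 (SE 0.81) and GUCY1A1, a subunit of the nitric oxide receptor, at 3.58 (SE 0.41). The largest adjusted p among the 12, by the edgeR quasi-likelihood test, was 0.00212, for TRIM15.

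Among the 12 largest falls were a mesenchymal cadherin, a lipid carrier and surface proteins of stromal and endothelial cells. CDH11, cadherin 11 of mesenchymal cells, at chr16:64943753-65123744, stood at 14.2, 12.3, 8.33 and 4.34 CPM in PE and at 0.0721, 0, 0.0619 and 0.0813 CPM in PM. FABP4, a fatty acid carrier known from adipocytes and endothelium, at chr8:81478419-81483233, stood at 6.45, 11.0, 5.24 and 21.6 CPM in PE and at 0.0721, 0.0196, 0.0619 and 0.183 CPM in PM. Both had log2 changes below −7 (−7.44, SE 0.61, and −7.09, SE 0.70). The levels in PM were close to what 3 counts amount to there, 0.0371 to 0.108 CPM, so the size of each fold is loosely set.

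PDPN, podoplanin, a mucin-like glycoprotein linked to cell motility, at chr1:13583757-13617957, fell from 40.3, 34.9, 40.8 and 41.1 CPM to 1.41, 0.568, 0.805 and 0.529 CPM (log2 −5.65, SE 0.27, adjusted p = 1.13e-13). IL1RL1, the receptor of interleukin 33, at chr2:102311563-102352356, fell from 67.4, 61.7, 40.3 and 42.5 CPM to 1.37, 1.84, 0.83 and 0.264 CPM (log2 −5.64, SE 0.55, adjusted p = 2.46e-07). MAP1B, which binds microtubules, fell from 30.7, 40.6, 46.5 and 55.5 CPM to 1.77, 1.98, 1.16 and 0.752 CPM. In all 3 the lowest library of PE was more than 10-fold above the highest of PM. GDA, guanine deaminase, fell from a mean of 84.0 ± 9.43 CPM to 2.90 ± 1.02 CPM, and CADM3, an adhesion molecule of the immunoglobulin family, from 75.6 ± 10.9 CPM to 2.79 ± 0.951 CPM (SD, n = 4 each). HSD11B1, which regenerates cortisol from cortisone, fell from 18.1 ± 5.60 CPM to 0.675 ± 0.246 CPM. The others were CYB5R2 at a log2 change of −5.22, PRG4 (lubricin) at −5.10, ACKR1, a decoy receptor of chemokines, at −4.97 and HP, haptoglobin, at −4.94 (SE 1.16, adjusted p = 0.00313, the largest of the 12).

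**Figure D2:**
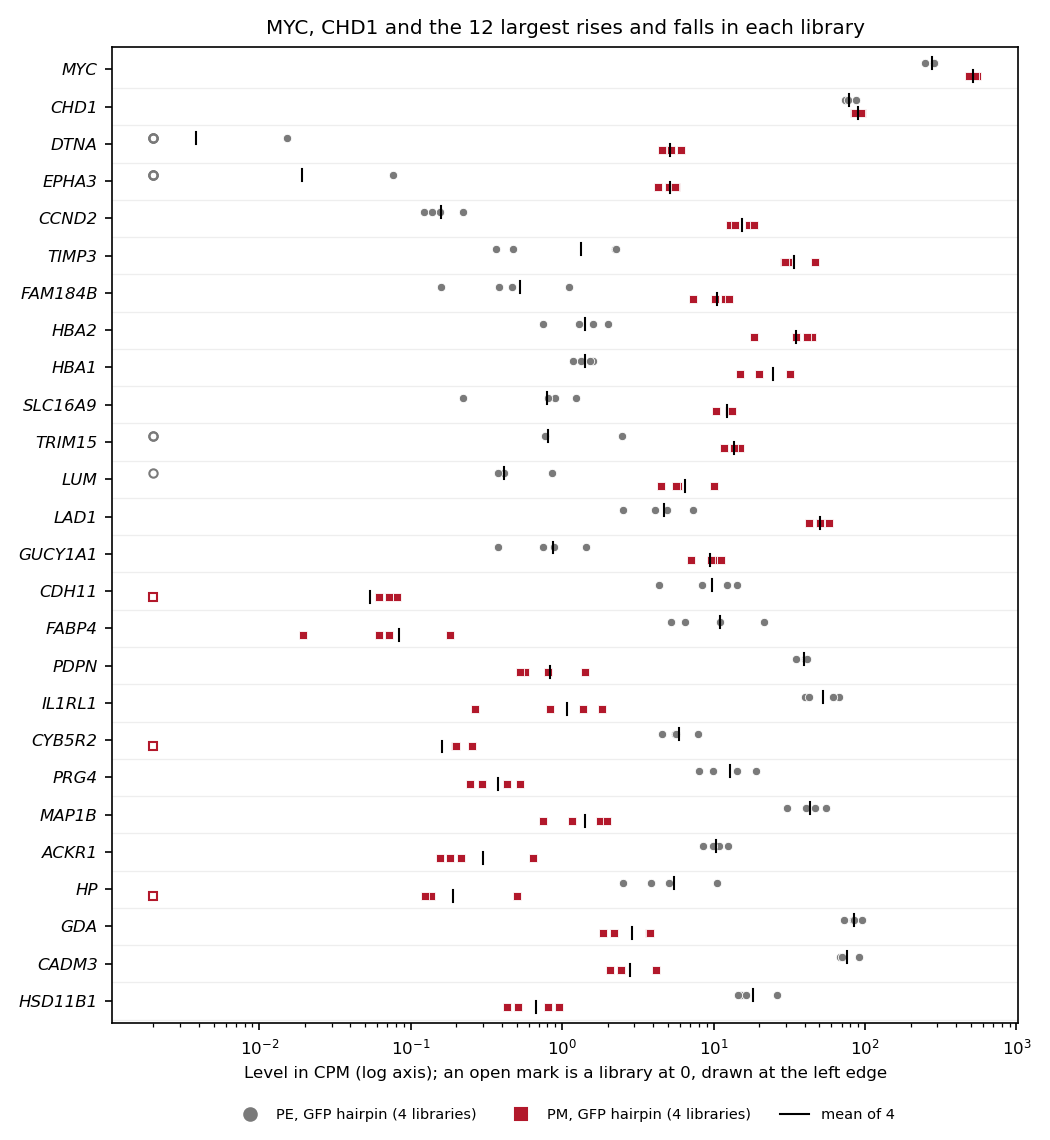
Levels of MYC, CHD1 and the 12 largest rises and falls in each of the 8 libraries, in CPM on a log axis, with circles for PE, squares for PM and a bar at the mean of 4. Only CHD1 has overlapping libraries, as the rises and falls were chosen without overlap, and open marks at the left edge are libraries at 0.

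Classical targets of MYC were higher in PM. Of 37 tested members 32 rose and none fell (86.5%), against 14.1% and 11.4% of all genes tested. Among the 11024 genes that averaged 5 CPM or more over the 8 libraries the shares were 23.7% and 15.5%. The list's median log2 change was 0.52, and over all settings tried between 32 and 33 members rose. TERT, the catalytic subunit of telomerase, stood at 0, 1.60, 1.16 and 2.70 CPM in PE and at 8.00, 5.56, 7.19 and 7.52 CPM in PM. POLR3G, a subunit of RNA polymerase III, stood at 16.2, 17.5, 16.9 and 15.1 CPM in PE and at 28.7, 34.6, 31.2 and 35.5 CPM in PM. RRP12, a ribosome export factor, rose from 61.0 ± 7.45 to 100.1 ± 10.8 CPM (SD, n = 4 each; log2 0.70, SE 0.10, adjusted p = 1.18e-06). The members that did not pass were PPAN at 0.42, SHMT1 at 0.06, LDHA at −0.00, ODC1 at −0.03 and E2F2 at −0.06 on the log2 scale. ODC1, the first enzyme of polyamine synthesis and a much used MYC target, stood at 616, 665, 549 and 505 CPM in PE and at 593, 669.5, 509.8 and 519 CPM in PM. Its libraries overlapped throughout.

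The E-box CACGTG, which reads the same on both strands, was searched in promoters of 300 bases (250 before to 50 after the start) taken from RefSeq on GRCh38.p14. It occurred in 7.43% of all 27305 promoters of the table, in 9.44% of the 13850 promoters of tested genes, in 14.1% of the 2281 of genes higher in PM and in 6.36% of the 1761 of genes lower in PM. Among genes averaging 5 CPM or more the shares were 14.4% for higher genes, 10.4% for genes not called and 6.48% for lower genes. Among classical MYC targets 14 of 30 matched promoters held it (46.7%), among ribosome biogenesis genes 15 of 54 (27.8%) and among genes reported to be repressed by MYC 5 of 19 (26.3%). A match is a description of these letters and not of binding. The 4 promoters below belong to classical targets that were higher in PM, hold the E-box and have a promoter in the table. They were taken as the 4 with the largest change among such genes, and the motif is in capitals. The promoter of TERT (log2 2.14) is at chr5:1295019-1295318 and that of RRP9 of the box C/D snoRNP of U3 (0.69) at chr3:51941855-51942154. That of FBL, the methyltransferase fibrillarin (0.66), is at chr19:39846330-39846629, and that of HSPD1, the mitochondrial chaperonin (0.60), at chr2:197500225-197500524. Each is written 5′ to 3′ on the minus strand.
TERT: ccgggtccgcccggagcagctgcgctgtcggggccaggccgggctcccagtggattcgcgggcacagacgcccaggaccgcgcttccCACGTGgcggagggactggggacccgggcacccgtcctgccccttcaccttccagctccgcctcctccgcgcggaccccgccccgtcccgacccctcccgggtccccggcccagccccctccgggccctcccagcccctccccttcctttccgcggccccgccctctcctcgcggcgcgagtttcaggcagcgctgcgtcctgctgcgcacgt
RRP9: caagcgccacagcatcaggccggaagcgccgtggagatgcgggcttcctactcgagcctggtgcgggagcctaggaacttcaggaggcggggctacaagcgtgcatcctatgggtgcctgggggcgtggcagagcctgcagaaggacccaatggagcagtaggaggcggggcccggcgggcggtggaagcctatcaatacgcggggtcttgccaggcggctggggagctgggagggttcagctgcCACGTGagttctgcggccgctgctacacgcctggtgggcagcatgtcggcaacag
FBL: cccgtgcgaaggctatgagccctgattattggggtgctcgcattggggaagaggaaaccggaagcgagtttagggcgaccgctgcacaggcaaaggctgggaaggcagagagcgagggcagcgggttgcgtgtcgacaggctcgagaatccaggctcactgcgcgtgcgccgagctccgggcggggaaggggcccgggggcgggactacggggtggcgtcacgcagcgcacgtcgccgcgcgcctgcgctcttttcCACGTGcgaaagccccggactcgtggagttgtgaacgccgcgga
HSPD1: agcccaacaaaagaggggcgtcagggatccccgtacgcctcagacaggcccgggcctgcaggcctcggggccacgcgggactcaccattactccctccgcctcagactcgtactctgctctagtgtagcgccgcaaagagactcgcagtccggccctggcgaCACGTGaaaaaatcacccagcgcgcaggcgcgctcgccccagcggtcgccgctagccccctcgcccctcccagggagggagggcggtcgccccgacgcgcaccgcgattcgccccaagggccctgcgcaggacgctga
Counted from 1 at the 5′ end, the motif began at base 88 in TERT, 246 in RRP9, 257 in FBL and 163 in HSPD1, so that in FBL it lay after the annotated start.

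Within the MYC and MAX network, 7 of 26 tested genes rose and 2 fell (26.9% and 7.69%, median 0.08). All genes tested gave 14.1% and 11.4%, and those averaging 5 CPM or more 23.7% and 15.5%, so the share of rises was near the latter. Beside MYC the rises were BIN1, an interactor of MYC, at 0.74, the ATPases RUVBL1 and RUVBL2 at 0.61 and 0.45, the acetyltransferase KAT2A at 0.42, the MAX partner MNT at 0.28 and WDR5, a subunit of histone methyltransferase complexes, at 0.25. MXD1, which competes with MYC for MAX, stood at 18.5, 19.1, 17.8 and 11.5 CPM in PE and at 11.4, 10.7, 9.97 and 6.95 CPM in PM. The gap between the lowest library of PE and the highest of PM was small, and the log2 change was −0.76 (SE 0.18, adjusted p = 0.00151). MXD3 was the other fall, at −0.41, and 1 of the 2 falls was lost without replicate 2, 3 or 4 of PE or replicate 2 of PM. MAX itself was at −0.06, and MXI1 at 0.44, MGA at 0.25, MXD4 at 0.14, FBXW7 at 0.14, MLX at 0.08, AURKA at 0.06, ZBTB17 (MIZ1) at −0.03, TRRAP at −0.07 and HUWE1 at −0.11 did not pass; MYCL, MYCBP2, CIP2A, USP28, MLXIP and MLXIPL did not pass either. Of 29 genes reported to be repressed by MYC, 11 fell and 1 rose (37.9% and 3.45%, median −0.42). TIMP2, a metalloprotease inhibitor, fell by 1.79, CLU (clusterin) by 1.24 and DUSP1, a MAP kinase phosphatase, by 1.05 on the log2 scale. The inhibitors CDKN1A (p21), at −0.25, and CDKN1B (p27), at −0.19, are in that list and did not pass.

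Ribosome production moved as a block of small rises. Of 63 genes of ribosome biogenesis and RNA polymerase I, 60 rose and none fell (95.2%), with a median of 0.50 and a range from 0.01 to 0.99. LYAR, a nucleolar factor, stood at 69.4, 77.8, 64.5 and 68.4 CPM in PE and at 132, 154, 129.8 and 136 CPM in PM. NOP14, of the small subunit processome, was at 0.83. LYAR and NOP14 lie in the first 20 Mb of chromosome 4, the 20 Mb window with the highest median change of all. PPAN, TAF1C and TAF1B were the members that did not pass. Of 78 cytosolic ribosomal protein genes 53 rose and none fell, with a median of 0.20 (RPL36 at 0.36, FAU and RPS15 at 0.33), and all 78 estimates were above 0. Their changes are small and the count depended on the libraries: 23 rose without replicate 1 of PE and 34, 27 and 31 without replicates 1, 2 and 4 of PM. DESeq2 size factors in place of TMM scaling gave 34. Single values of these genes are uncertain, since many pseudogenes resemble them.

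Mitochondrial and translation genes went the same way. In the mitochondrial ribosome and import list 38 of 40 rose and none fell (median 0.44), with MRPL4, of the large subunit, at 0.71, the import motor adaptor TIMM44 at 0.63, MRPS30 at 0.60 and TIMM13 at 0.59. The nuclear genes of oxidative phosphorylation gave 34 rises of 58 and no fall (median 0.21), with ATP5ME at 0.71 and cytochrome c, CYCS, at 0.53, and 21 rises without replicate 1 of PM. None of the 13 protein-coding transcripts of the mitochondrial genome passed in either direction (median 0.14). In that list 3 members were higher and 0 lower at an unadjusted p under 0.05 in edgeR, and 0 passed in DESeq2 or limma-voom, but 4 rose without replicate 4 of PE. Chaperonins and heat shock proteins gave 23 rises of 26 (median 0.33), led by the mitochondrial TRAP1 at 0.66 and HSPD1 at 0.60, and translation factors 22 of 27 (median 0.28), led by EIF2B3 at 0.48 and EIF3B at 0.46. Neither list had a fall. For the growth lists without a fall in edgeR's test, 0 members were lower at an unadjusted p under 0.05 or passed as lower in DESeq2 or limma-voom, save 1 nucleotide synthesis gene, lower at an unadjusted p and in DESeq2. The helicase EIF4A1, a member of that list, is listed at 0 in all 24 libraries; cells use this gene throughout, so the 0 may belong to the counting, which was not tested.

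One aminoacyl-tRNA synthetase stood far from the others. GARS1, glycyl-tRNA synthetase, at chr7:30594735-30634033, stood at 209, 201, 201 and 199 CPM in PE and at 1616, 1559, 1622 and 1639 CPM in PM. The 8 libraries formed 2 tight groups with a ratio of 7.95 (log2 2.99, SE 0.07, adjusted p = 1.28e-27). In the list as a whole 16 of 23 rose and none fell (median 0.30), but the next changes were FARSA and FARSB, the subunits of phenylalanyl-tRNA synthetase, at 0.49 and 0.45, and VARS1 at 0.43. Amino acid supply moved more selectively. SLC7A5, the LAT1 carrier of large neutral amino acids, stood at 336, 419, 444 and 453 CPM in PE and at 908, 1056, 887 and 1062 CPM in PM (ratio 2.37, log2 1.24, SE 0.12). Its partner chain SLC3A2 rose by 0.77, the glutamate carrier SLC1A3 by 0.51 and the glutamine carrier SLC1A5 by 0.50 on the log2 scale. In all, 5 of 17 tested transporters rose and 2 fell (29.4% and 11.8%, beside 14.1% and 11.4% of all genes tested). Among genes averaging 5 CPM or more 23.7% rose and 15.5% fell. The cystine carrier SLC7A11, at −0.04, did not pass. Of 23 genes of ATF4 and serine synthesis 11 rose and 1 fell (median 0.26), with PYCR1 of proline synthesis at 0.98. The count of falls depended on the setting. It was 5 with the compared groups fitted alone, 4 with DESeq2's Wald test or a replicate block, and 0 without replicate 4 of PM. The larger changes of asparagine synthetase, ASNS, at 1.60, and CTH of cysteine synthesis, at 1.20, are of genes below 5 CPM and were named after their values were seen.

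In nucleotide and one-carbon synthesis 21 of 32 genes rose and none fell (median 0.34). PFAS of purine synthesis rose by 0.68, DHODH of pyrimidine synthesis by 0.60 and the mitochondrial folate enzymes MTHFD1L and MTHFD2 by 0.59 and 0.57 on the log2 scale. The deoxynucleotide enzymes RRM1 (0.10), RRM2 (0.16), TYMS (0.02) and TK1 (0.09) did not pass. Polyamine metabolism was mixed, with 4 rises and 2 falls of 17 (23.5% and 11.8%, beside 14.1% and 11.4% of all genes tested). The share of rises was near the 23.7% of genes averaging 5 CPM or more. DOHH of hypusine synthesis rose by 0.62, spermidine synthase SRM by 0.57 and EIF5A by 0.35, and the spermine oxidase SMOX fell by 1.19 on the log2 scale. In the list of cholesterol and fatty acid synthesis 7 of 31 rose and 2 fell. These are 22.6% and 6.45%, beside 23.7% and 15.5% of genes averaging 5 CPM or more. The largest change of the list was the fall of FADS2, a desaturase of polyunsaturated fatty acids, at −0.85. FASN, fatty acid synthase, was at 0.70, the desaturase SCD at 0.54 and SREBF1 at 0.52, while the cholesterol enzymes HMGCS1 (−0.03) and SQLE (0.03) did not pass.

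Among DNA replication and G1/S genes 26 of 49 rose and none fell (median 0.31), with the phosphatase CDC25A at 0.58, TIPIN at 0.52, the helicase subunit MCM2 at 0.49 and UHRF1 at 0.45. The count was 16 without replicate 1 of PE and 16 without replicate 2 of PM. Of 43 genes of mitosis and the kinetochore 3 rose and 6 fell (6.98% and 14%, median −0.03), shares near or below the 14.1% and 11.4% of all genes tested, and 10 fell without replicate 1 of PE or without replicate 3 of PM. CDC25B, the mitotic phosphatase, fell by 0.61 and KIF4A by 0.35, and CDC20 rose by 0.38 on the log2 scale. The proliferation marker MKI67, at −0.12, did not pass. Homologous recombination and Fanconi genes gave 7 rises and 1 fall of 37 (18.9% and 2.7%, beside 14.1% and 11.4% of all genes tested). Both shares were below the 23.7% and 15.5% of genes averaging 5 CPM or more. The rises were 4 without replicate 1 of PE or without replicate 2 of PM. The helicase BLM was at 0.52 and XRCC2 at 0.51. Among G1 cyclins and CDK inhibitors CCND2, CDK4 (0.46) and CCNE1 (0.39, a call lost in part of the settings) rose and CDKN1C (p57) was the 1 fall of 17, at −0.97, a call that was lost without any 1 of 6 libraries and with the compared groups fitted alone. The shares of rises and falls in this list were 17.6% and 5.88%, both below those of genes averaging 5 CPM or more. CCND1, cyclin D1, was at −0.10 and did not pass.

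**Figure D3:**
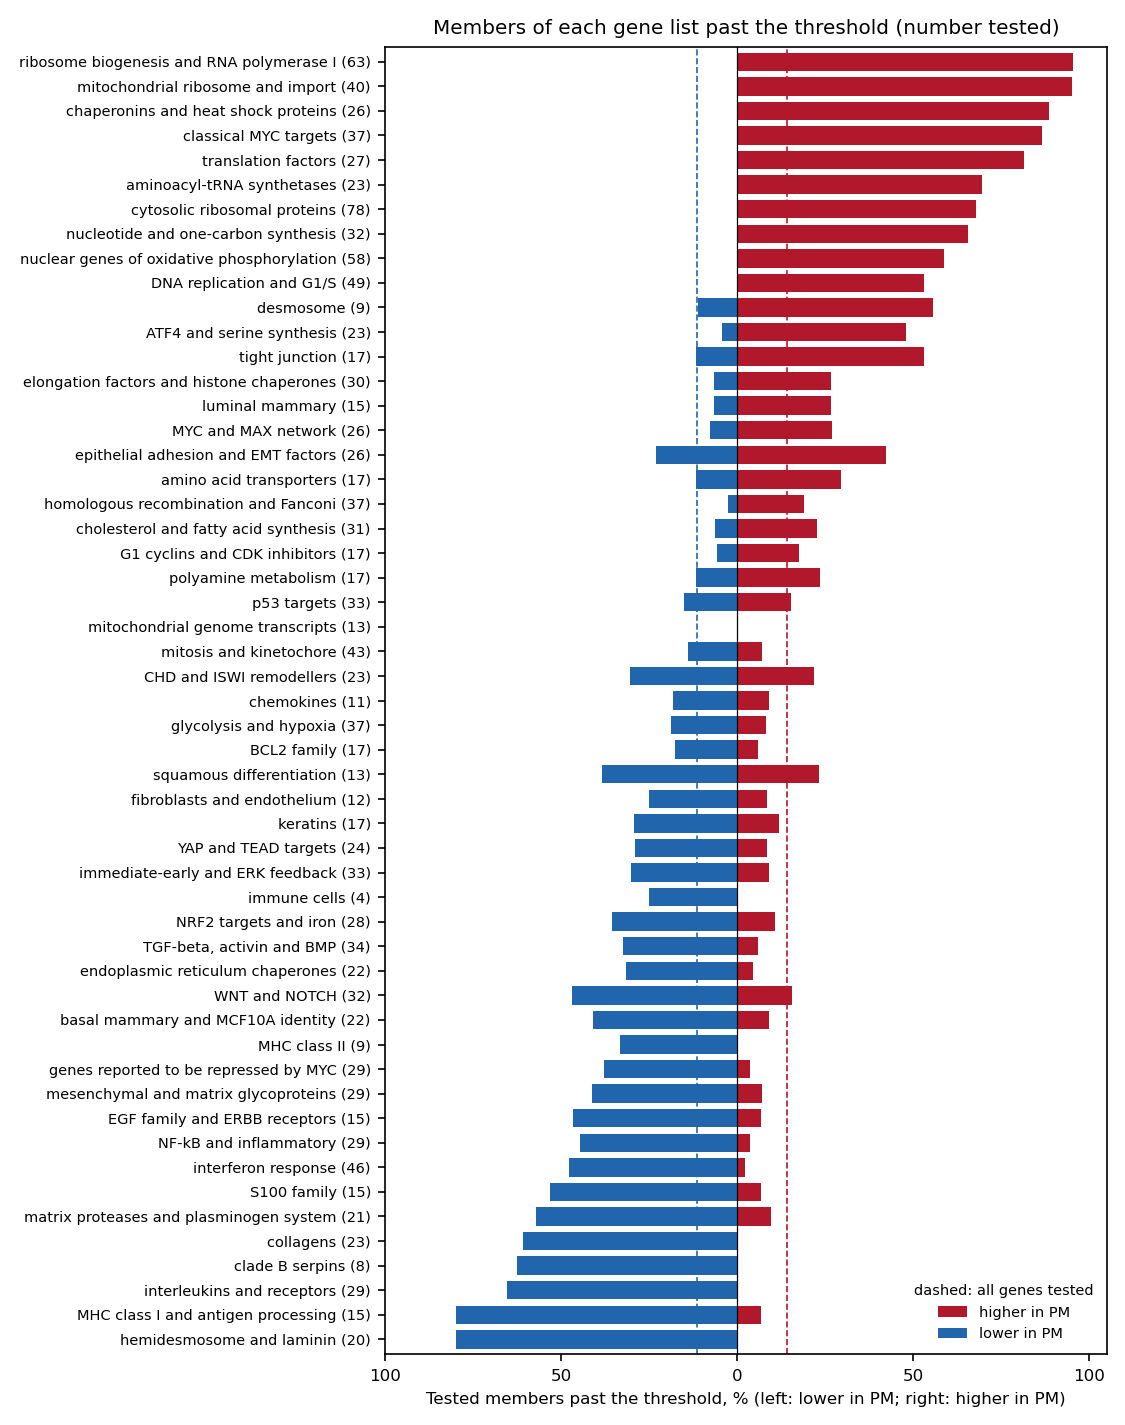
The share of tested members of each gene list that passed the threshold, to the right for genes higher in PM and to the left for genes lower in PM, with the number tested in brackets and dashed lines at 14.1% and 11.4% for all genes tested. Growth lists fill the right side and matrix, antigen presentation and cytokine lists the left.

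Of 37 genes of glycolysis and hypoxia 3 rose and 7 fell (8.11% and 18.9%, median 0.00), beside 14.1% and 11.4% of all genes tested. Genes averaging 5 CPM or more gave 23.7% and 15.5%. The counts in the list depended on the setting: 11 rose and 13 fell with a replicate block. There were 5 rises without replicate 3 of PE and 11 falls with limma-voom. HK2, hexokinase 2, rose by 0.67, PFKM by 0.46 and LDHB by 0.30, while EPAS1, which encodes HIF2-alpha, fell by 1.20, ADM (adrenomedullin) by 1.08 and ANGPTL4 by 0.99 on the log2 scale. The call of ADM was lost without any 1 of 5 libraries. In the list of NRF2 targets and iron 10 of 28 fell and 3 rose (1 without replicate 1 of PE or replicate 1 or 2 of PM). Aldo-keto reductases led it. AKR1C1 stood at 277, 305, 281 and 335 CPM in PE and at 85.5, 107, 57.1 and 73.9 CPM in PM (log2 −1.89, SE 0.26, adjusted p = 1.38e-05). AKR1C2 and AKR1C3, at −1.29 and −1.30, are similar in sequence to it, and reads can be shared among them. ABCC2, an export pump for conjugates, fell from 172 ± 33.1 to 55.6 ± 8.52 CPM (SD, n = 4 each). Other NRF2 targets did not follow: HMOX1 (−0.01), GCLM (0.04), SRXN1 (0.25) and NFE2L2 itself (−0.01) did not pass. Endoplasmic reticulum chaperones gave 7 falls and 1 rise of 22 (4 falls without replicate 3 of PE), with the stress sensor ERN1 at −0.70.

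Genes of the extracellular matrix and of attachment to it were lower in PM. Of 20 hemidesmosome and laminin genes 16 fell and none rose (80%, median −0.79), of 23 collagens 14 fell and none rose (60.9%, median −0.82) and of 21 matrix proteases and plasminogen genes 12 fell and 2 rose (57.1% and 9.52%, median −1.23). Mesenchymal and matrix glycoproteins gave 12 falls and 2 rises of 29 (41.4% and 6.90%, median −0.63). FN1, fibronectin, stood at 385, 383, 566 and 612 CPM in PE and at 59.6, 49.4, 76.9 and 106 CPM in PM. SPARC, a collagen-binding matrix protein, stood at 88.6, 100.6, 125 and 127 CPM in PE and at 22.7, 20.8, 21.3 and 18.2 CPM in PM. TNC, tenascin C, went from 64.5, 56.9, 53.6 and 44.2 CPM to 10.8, 8.09, 10.9 and 8.21 CPM. The libraries of the lines lay at least 3-fold apart in these genes, with log2 changes of −2.74 (SE 0.27), −2.42 (SE 0.12) and −2.51 (SE 0.12).

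Chains of collagen VI are encoded close together on chromosome 21 and varied together in PE. COL6A1 stood at 71.4, 114, 196 and 219 CPM in PE and at 13.5, 10.2, 17.0 and 24.5 CPM in PM. COL6A2 stood at 11.3, 29.3, 49.8 and 69.6 CPM in PE and at 1.08, 0.411, 1.62 and 3.90 CPM in PM. Replicate 1 of PE was the lowest and replicate 4 the highest for both, a spread of more than 3-fold within the group, and the changes were −3.23 (SE 0.39) and −4.58 (SE 0.60) on the log2 scale. COL8A1 fell by 2.43. COL17A1, the transmembrane collagen of hemidesmosomes, stood at 51.8, 30.9, 30.1 and 27.5 CPM in PE and at 3.35, 2.76, 4.45 and 8.62 CPM in PM. LAMB3, a chain of laminin 332 in the epithelial basement membrane, stood at 2667, 2799, 3215 and 2086 CPM in PE and at 1105, 1300, 1328 and 1077 CPM in PM (ratio of PE to PM 2.24). LAMA4 fell by 3.40 and the fibronectin receptor chain ITGA5 by 0.95 on the log2 scale. CD151 (0.10), PLEC (−0.01), LAMB1 (−0.16) and ITGB4 (−0.59) were the members that did not pass. For collagens, hemidesmosome genes, interleukins and serpins, 0 members were higher at an unadjusted p under 0.05 in edgeR, and 0 in DESeq2 or limma-voom.

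Proteases and their inhibitors fell alike. MMP14, the membrane-bound collagenase, stood at 97.0, 83.7, 98.2 and 72.7 CPM in PE and at 16.9, 11.5, 14.2 and 9.98 CPM in PM. SERPINE2, protease nexin 1, stood at 412, 396, 366 and 387 CPM in PE and at 58.2, 46.1, 53.9 and 63.7 CPM in PM. These correspond to log2 changes of −2.74 (SE 0.14) and −2.81 (SE 0.18), and ADAM19 was at −2.55. TIMP3 was the exception described above, and ADAMTS6, at 1.22, was the other rise, named after its value was seen. VIM, vimentin, was lower by less, at 871 ± 100.0 CPM in PE and 565 ± 20.7 CPM in PM (SD, n = 4 each; log2 −0.62, SE 0.06). MMP2 (−0.34), LOX (−0.16), ACTA2 (−0.05) and TAGLN (0.22) did not pass.

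Cytokines and antigen presentation were lower in PM. Of 29 interleukins and receptors 19 fell and none rose (65.5%, median −0.61). IL1B, interleukin 1 beta, stood at 267, 255, 314 and 200.2 CPM in PE and at 22.5, 27.3, 21.3 and 15.0 CPM in PM. IL6 stood at 183, 220.1, 156 and 106 CPM in PE and at 26.1, 26.9, 17.6 and 8.01 CPM in PM. For both, the lowest library of PE lay well above the highest of PM (log2 −3.59, SE 0.28, and −3.08, SE 0.48). IL1A fell by 2.10 on the log2 scale, and IL1RL1, given above, belongs to the same list. In the list of NF-kB and inflammatory genes 13 of 29 fell and 1 rose (44.8% and 3.45%, median −0.54). S100A8, a subunit of calprotectin, stood at 169, 121, 90.3 and 88.1 CPM in PE and at 13.0, 3.39, 6.67 and 4.94 CPM in PM (log2 −4.09, SE 0.47). Its partner S100A9 fell by 2.88, complement factor CFB by 1.77 and the dismutase SOD2 by 1.74 on the log2 scale. The subunits RELA (−0.03), NFKB1 (−0.09) and REL (−0.16) did not pass.

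Chemokines were counted in few cases, with 2 falls and 1 rise of 11 (18.2% and 9.09%, beside 11.4% and 14.1% of all genes tested). Among genes averaging 5 CPM or more 15.5% fell and 23.7% rose. CXCL8, interleukin 8, stood at 539, 550.4, 686 and 427 CPM in PE and at 187, 238, 232 and 134 CPM in PM, and CXCL1 was at a log2 change of −1.57. CXCL2 (−0.57), CXCL3 (−0.75) and CCL20 (−0.57) did not pass, and other tools called more of the list, up to 7 falls with limma-voom. Of 46 interferon response genes 22 fell and 1 rose (47.8% and 2.17%, median −0.39). OAS1, an antiviral synthetase, stood at 16.2, 11.0, 12.6 and 12.1 CPM in PE and at 2.34, 1.94, 2.08 and 1.81 CPM in PM. TRIM22 fell by 1.40, IFI6 by 1.33 and IFIT3 by 0.87 on the log2 scale, and the 1 rise was IFITM1, at 2.71 from below 1 CPM, named after its value was seen. IFITM2 (0.11), IFITM3 (0.08) and ISG15 (−0.28) did not pass.

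In the list of MHC class I and antigen processing 12 of 15 fell and 1 rose (80% and 6.67%, median −0.58). HLA-B stood at 325, 348, 397 and 444 CPM in PE and at 134, 124, 147 and 171 CPM in PM (log2 −1.40, SE 0.23). PSMB9, a subunit of the immunoproteasome, stood at 64.5, 76.8, 78.5 and 77.3 CPM in PE and at 17.6, 7.6, 22.9 and 12.3 CPM in PM (log2 −2.31, SE 0.32). No library of PM reached the lowest of PE for either gene. HLA-F fell by 0.93 and the trimming peptidase ERAP1 by 0.71 on the log2 scale, and PSMB10 was the 1 rise, at 0.46. HLA genes resemble one another and vary between people, so the share of reads given to each is uncertain. In MHC class II 3 of 9 fell and none rose, with the regulator CIITA at −1.14.

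Growth factor signalling genes moved both ways, with more falls. Of 33 immediate-early and ERK feedback genes 10 fell and 3 rose (30.3% and 9.09%, median −0.22). DUSP6, the ERK phosphatase that ERK signalling induces, stood at 136, 129, 104.6 and 126 CPM in PE and at 51.1, 39.4, 43.7 and 40.4 CPM in PM. DUSP4 and SPRED3, inhibitors in the same pathway, fell by 1.65 and 2.62, and DUSP2 rose by 1.85 on the log2 scale. EGR1 (0.36), JUNB (−0.01) and FOS (−1.23) did not pass. In the EGF family 7 of 15 fell and 1 rose (46.7% and 6.67%, median −0.40). EREG, the ligand epiregulin, stood at 76.3, 108, 111 and 121 CPM in PE and at 29.6, 27, 29.5 and 22.8 CPM in PM, HBEGF fell by 1.07 and LRIG1, a negative regulator of EGFR, by 1.35 on the log2 scale. AREG, amphiregulin, at −0.40, did not pass.

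Of 34 genes of TGF-beta, activin and BMP signalling 11 fell and 2 rose (32.4% and 5.88%, median −0.23). LTBP1, which stores latent TGF-beta in the matrix, stood at 129, 100.9, 138 and 158 CPM in PE and at 23.4, 16.6, 18.7 and 25.1 CPM in PM (log2 −2.66, SE 0.18). LTBP2 fell by 1.05 and SMAD3 by 0.92 on the log2 scale, and the ligands TGFB1 (0.12) and TGFB2 (−0.06) did not pass. WNT and NOTCH genes gave 15 falls and 5 rises of 32 (46.9% and 15.6%, median −0.30). WNT5A, a ligand of noncanonical WNT signalling, went from 43.1 ± 6.34 to 13.8 ± 1.68 CPM (SD, n = 4 each), while RNF43 rose by 1.52, LEF1 by 1.32 and NRARP by 1.27 on the log2 scale. Of 24 YAP and TEAD targets 7 fell and 2 rose (29.2% and 8.33%, median −0.13). AXL, a receptor kinase, stood at 79.4, 79.1, 104 and 97.7 CPM in PE and at 35.4, 41.5, 36 and 33.4 CPM in PM. CCN1 rose by 0.89, a call lost without replicate 1 of PE or replicate 2 of PM, and CCN2 (0.19) and YAP1 (0.01) did not pass.

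Epithelial junction genes were higher in PM, against the direction of the matrix. In the list of epithelial adhesion and EMT factors 11 of 26 rose and 6 fell (42.3% and 23.1%, median 0.25). EPCAM, an epithelial adhesion molecule, stood at 28.3, 27.4, 15.2 and 14.5 CPM in PE and at 105.2, 94.7, 93.9 and 82.8 CPM in PM (log2 2.23, SE 0.20). CDH1, E-cadherin, stood at 13.8, 11.1, 8.29 and 3.75 CPM in PE and at 28, 25.2, 24.1 and 26.7 CPM in PM. ZEB1, a repressor of CDH1, stood at 17.8, 14.1, 16.8 and 16.4 CPM in PE and at 8.79, 8.56, 9.34 and 7.12 CPM in PM; CDH1 (1.63, SE 0.34) and ZEB1 (−0.93, SE 0.15) were named after their values were seen. MAL2 rose by 1.68, CDH11 and GRHL3 were the largest falls of the list, and SNAI1 (−0.06), SNAI2 (0.09) and TWIST1 (−0.26) did not pass.

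Desmosome genes gave 5 rises and 1 fall of 9 (median 0.52) and tight junction genes 9 rises and 2 falls of 17 (median 0.34). The tight junction rises were 5 when only genes that reach 5 CPM in 4 libraries were tested. The desmosome falls lay between 0 and 2 over the settings. DSC3, a desmosomal cadherin of basal layers, stood at 6.01, 7.59, 5.16 and 3.20 CPM in PE and at 39.4, 34.4, 37.2 and 41.4 CPM in PM (ratio 6.94). DSG3 rose by 1.21 and DSC2 by 1.15 on the log2 scale, and DSP (0.21) and JUP (0.09) did not pass. CLDN7, a claudin of simple epithelia, rose by 1.60, MARVELD3 by 2.13 and LSR by 1.04. S100A14 stood at 75, 60.6, 44 and 34.3 CPM in PE and at 278, 265, 240.2 and 344 CPM in PM, the 1 rise of 15 in a family with 8 falls. The 4 libraries of PM lay above every library of PE for each of EPCAM, CDH1, DSC3 and S100A14.

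The basal markers did not move as one. KRT5, a keratin of basal cells, stood at 1430, 1624, 1206 and 918 CPM in PE and at 1362, 1009, 1104 and 1346 CPM in PM, with overlapping libraries (log2 −0.10, SE 0.20, adjusted p = 0.782). KRT14, its usual partner, stood at 55.9, 42.8, 25 and 34.1 CPM in PE and at 4.07, 3.02, 4.30 and 11.0 CPM in PM (log2 −2.79, SE 0.43). In the list of keratins 5 of 17 fell and 2 rose, and 2 fell without replicate 1 or 2 of PE or without replicate 1, 2 or 3 of PM, so only part of that count holds across libraries. Of 22 genes of basal mammary cells and MCF10A identity 9 fell and 2 rose (40.9% and 9.09%, median −0.23), with TRIM29 at 1.03 among the rises. Luminal genes gave 4 rises and 1 fall of 15 (26.7% and 6.67%, beside 14.1% and 11.4% of all genes tested), and ALDH1A3 was the fall, at −1.09. Among genes averaging 5 CPM or more 23.7% rose and 15.5% fell. Of the luminal genes 2 rose without replicate 1 or 3 of PE or replicate 3 of PM, and 1 without replicate 4 of PM. Clade B serpins gave 5 falls of 8, with SERPINB3 at −2.02 and SERPINB1 at −0.96, and SERPINB3 and SERPINB4 are near-identical and uncertain. In squamous differentiation 3 of 13 rose and 5 fell, with EPPK1 at 1.64 and PI3 at −1.34. These counts rest on single libraries: 1 rose without replicate 3 of PE, and 2 fell without replicate 3 of PE or without replicate 1, 2 or 4 of PM (3 without replicate 2 or 4 of PE or replicate 3 of PM).

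**Figure D4:**
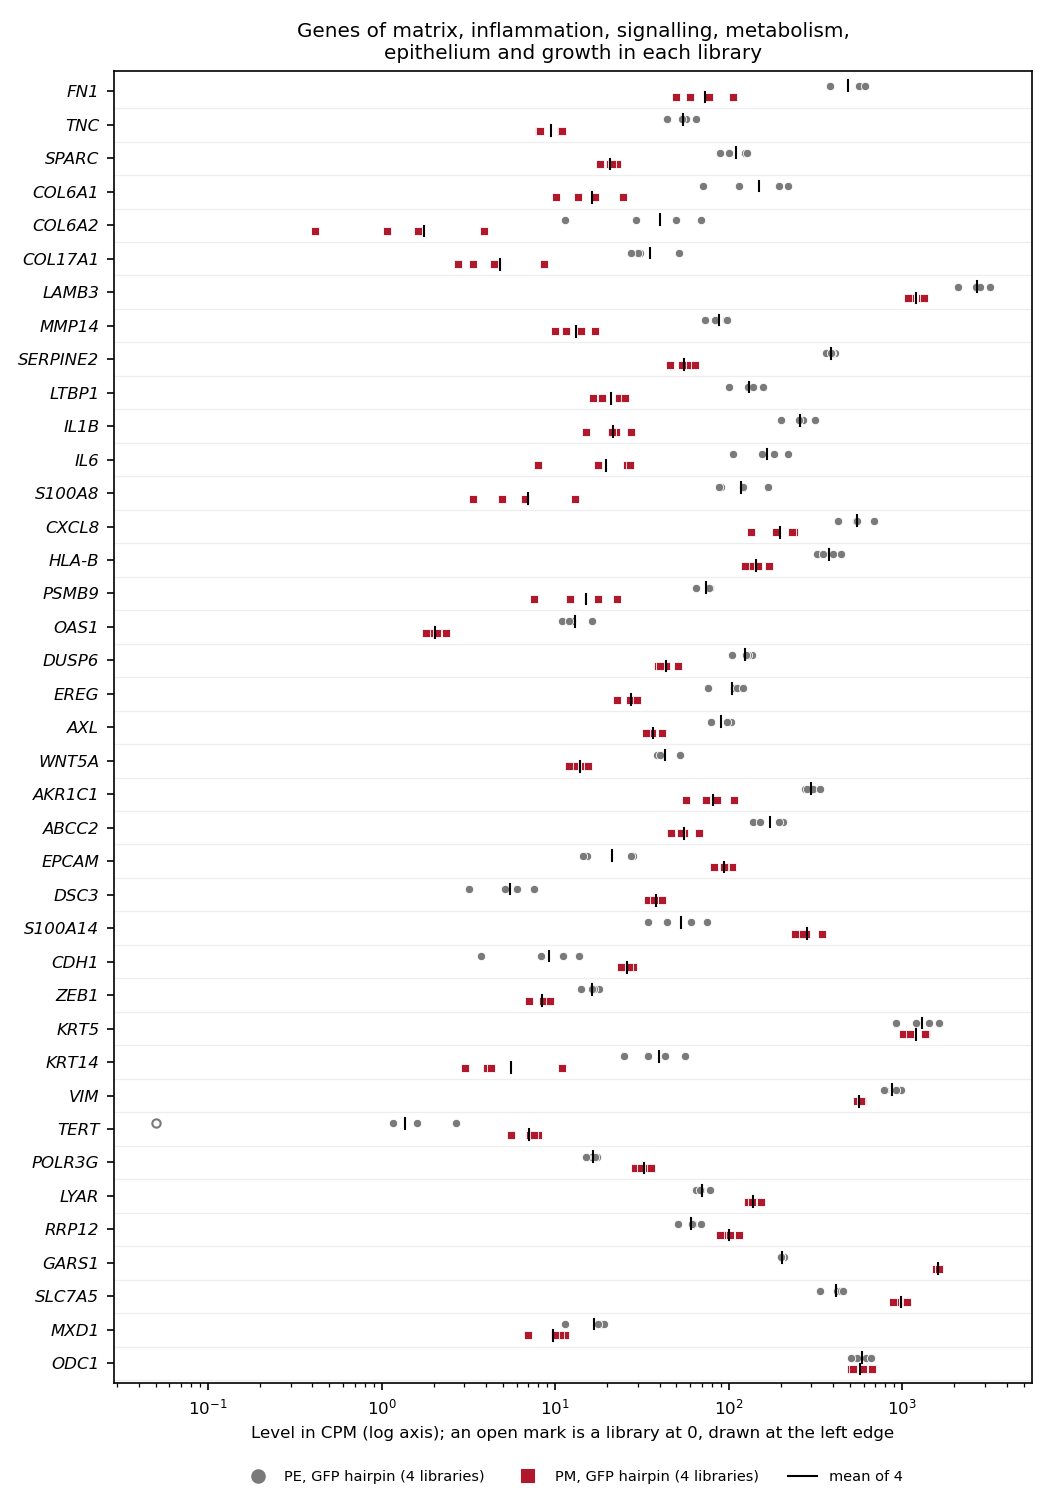
Levels in each of the 8 libraries of genes of matrix, inflammation, signalling, metabolism, epithelium and growth, in CPM on a log axis, with circles for PE, squares for PM and a bar at the mean of 4. The groups overlap for KRT5 and ODC1 only, and collagen VI genes spread widely within PE.

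The markers of other cell types were read as summed levels. Both lines showed the basal marker KRT5, while TP63, another basal marker, stayed below 1 CPM. The luminal markers were mixed. ESR1, PGR and KRT19 were at or near 0, but KRT8 had means of 237 CPM in PE and 298 CPM in PM. KRT18 was at 219 and 254 CPM, EPCAM at 21.4 and 94.2, GATA3 at 10.9 and 14.1 and FOXA1 at 4.16 and 6.62 (means of PE and PM). The 12 basal markers summed to 4733 to 6752 CPM in PE and 3508 to 3910 CPM in PM, and the 8 luminal markers to 437 to 527 and 606 to 741 CPM. The 7 immune markers summed to 64.8 to 76.1 CPM in PE and 51.7 to 55.2 CPM in PM, almost all from CD68 and CD14, with CD3D and CD3E at 0 in all 8 libraries. The 8 markers of fibroblasts and endothelium summed to 57.6 to 71.5 CPM in PE and 18.6 to 42.8 CPM in PM, mainly from DCN (decorin), while COL3A1 and PDGFRA stayed near 0 and VWF and CDH5 had no count in PE. The sum for fibroblasts and endothelium was lower in PM, as the matrix genes were, and its part in those results was not tested. Its markers did not all fall. DCN had means of 51.6 CPM in PE and 15.7 CPM in PM, and PECAM1 of 7.599 and 0.8954 CPM. COL1A1 was nearly level, at means of 5.76 and 5.66 CPM, and LUM was higher in PM, at 0.41 and 6.52 CPM. In bulk RNA fewer cells of a kind and less transcript per cell cannot be told apart.

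Of 33 targets of p53, 5 rose and 5 fell with the GFP hairpin (15.2% each, median −0.02), near the 14.1% and 11.4% of all genes tested. Among genes averaging 5 CPM or more 23.7% rose and 15.5% fell. Without replicate 1 or 2 of PM 3 of the p53 targets rose. With a replicate block 9 of them fell, and 8 with the compared groups fitted alone. GDF15 rose by 1.13, and TP53I3 fell by 0.91 and SUSD6 by 0.72 on the log2 scale, while CDKN1A and MDM2 (0.07) did not pass. In the libraries with CHD1 hairpins 24 of the same genes rose in PM and 2 fell, and the difference between both settings passed for 14 of 33, against 3.93% of all genes tested. In the BCL2 family BCL2L1 and MCL1, which oppose apoptosis, were at −0.26 and −0.21, calls that were lost without some of the libraries. Of 23 CHD and ISWI remodellers 5 rose and 7 fell (21.7% and 30.4%, beside 14.1% and 11.4% of all genes tested). The share of rises was below, and that of falls above, the share among genes averaging 5 CPM or more. The rises were 3 without replicate 2 of PE or replicate 2 or 4 of PM, and 2 without replicate 3 of PM. CHD7 was at 0.70, SMARCA1 at −0.81 and CHD3 at −0.52. Elongation factors and histone chaperones gave 8 rises and 2 falls of 30 (26.7% and 6.67%), with NELFA of the pausing complex at 0.74 and SSRP1 of FACT at 0.44. The share of rises was near the 23.7% of genes averaging 5 CPM or more. The falls were 5 with DESeq2 size factors, DESeq2's Wald test or library sizes alone. They were 6 when only genes that reach 5 CPM in 4 libraries were tested, and 1 without replicate 3 of PE or replicate 1 or 2 of PM.

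The same lines were also compared in the 16 libraries with CHD1 hairpins, which enter the same fit and share its filter and estimates of spread with the 8. With the CHD1 hairpins, taken as the mean of A and B, 9571 genes passed (46%), of which 4899 were higher in PM (23.5%) and 4672 lower (22.4%). Of the 5309 genes called with the GFP hairpin, 4647 passed in the same direction (87.5%, or 48.6% of the genes called with CHD1 hairpins) and 32 in the opposite one. Of the 1356 genes of at least 2-fold, 1086 passed in the same direction (80.1%). The comparisons share no library, but they share the lines and the fit. All 24 genes of largest change kept their direction, and MYC was at 0.82 with the CHD1 hairpins, against 0.91.

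The difference between the line comparisons was itself tested as an interaction and passed for 819 genes (3.93%), 461 of them among the genes called with the GFP hairpin (8.68%). Of the 24 genes of largest change it passed for LAD1, whose line difference was 3.63 with the GFP hairpin and 7.5 with the CHD1 hairpins (adjusted p = 5.24e-07), and for CADM3, at −4.74 and −3.68 (adjusted p = 0.00649). CDH1 was at 1.63 and 4.90 (adjusted p = 0.000215) and EPCAM at 2.23 and 3.56 (adjusted p = 0.00231). For CDH1 and EPCAM the difference between the lines was thus larger with the CHD1 hairpins. Their list, epithelial adhesion and EMT factors, had medians of 0.25 with the GFP hairpin and −0.04 with the CHD1 hairpins. The medians were 0.52 and 0.91 for desmosome genes and 0.34 and 0.63 for tight junction genes. COL17A1, at −2.83 with the GFP hairpin, was at 0.37 with the CHD1 hairpins and did not pass there (adjusted p = 0.272; interaction adjusted p = 0.000227). The plot of both settings shows LAD1 and CADM3 off the diagonal.

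**Figure D5:**
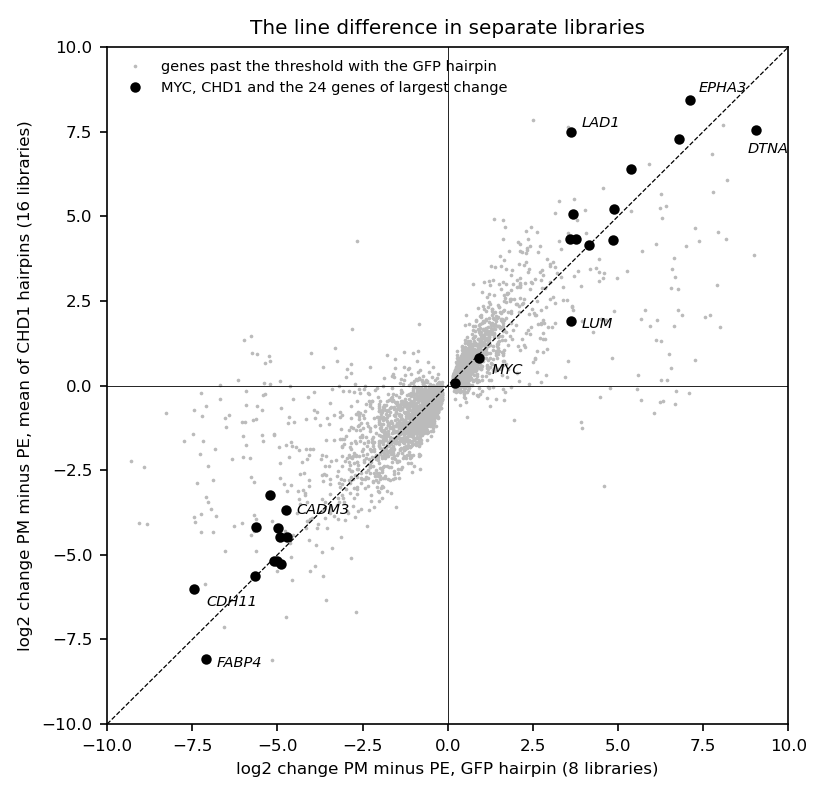
The log2 change PM minus PE with the GFP hairpin against that with the CHD1 hairpins, for genes called with the GFP hairpin and, as large points, MYC, CHD1 and the 24 genes of largest change; the dashed line marks equal change. LAD1 lies above the line, at 3.63 and 7.5, and all 24 genes keep their sign.

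Changes by chromosome region were described without a test, and most regions had a median change near 0. Over 11855 protein-coding genes with a level of at least 1 CPM, 148 of 151 windows of 20 Mb had a median log2 change within 0.2 of 0. The highest median, 0.30 over 89 genes with 39 rises and 11 falls, was that of the first 20 Mb of chromosome 4, where it was 0.15 with the CHD1 hairpins, and the lowest was −0.13. The windows chr12:80000001-100000000 and chr4:100000001-120000000 followed at 0.21 each, with 43.9% and 39.6% of their genes higher. With the CHD1 hairpins their medians were 0.044 and 0. Chromosome 4 had the highest median of the autosomes, 0.14 against 0.045 over all these genes, and 33.3% of its genes rose, against 22.4% of all of them.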

How the data were processed

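Poly(A) RNA of 24 MCF10A libraries was sequenced after a directional library preparation. The authors deposited whole-number read counts per gene; per the submitters' processing notes the tools were FastQC, Trim Galore 0.4.0, HISAT2 2.2.1 and featureCounts on GRCh38. Which annotation release was used, whether counting was stranded and how multiply matching reads were handled is not given in the sources used here. The counts were fitted as deposited with edgeR 4.0.16 (R 4.3.3): TMM scaling, the default expression filter, 1 mean for each of 6 groups over all 24 libraries, the quasi-likelihood test and Benjamini-Hochberg adjustment over all 20820 genes tested, with a threshold of 0.05. Levels are CPM after TMM scaling. DESeq2 1.42.0 and limma 3.58.1 (voom), other scalings, filters, fits without each library and a replicate block were alternatives. In simulated counts 100 genes were changed 2-fold and 100 were changed 1.5-fold, all with a mean of at least 1 CPM. The test recovered 84% of the 2-fold and 62% of the 1.5-fold changes, with 5 false calls among 20158 genes tested. Far fewer genes were changed there than were called in the data, so these rates may not carry over.

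Named genes were MYC, CHD1, among protein-coding genes the 12 largest called rises and the 12 largest called falls with at least 5 CPM in a group and libraries that do not overlap, and for each list at most 4 called genes of largest change with at least 5 CPM. The members and lists were chosen with earlier results of these data known, and other genes given by library or as not passing were chosen after their values were seen. Gene positions and promoters come from RefSeq on GRCh38.p14, where 57842 names matched by current symbol, 370 by an older symbol and 1039 not at all. No genome sequence was used here beyond these tables. Values of some list members are not reported here.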

Additional observations from a re-analysis of the deposited data

Results flagged for a closer look

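In the levels of 65 genes over 130 groups of 4 libraries, and in 4 measures of the libraries, 14 cases had 1 library far from the other 3 by Dixon's 95% criterion, which chance gives in about 1 of 20 groups. Of these, 5 were in replicate 1 of PE, the shallowest library. MYC was at 249 CPM there (283 to 285 in the others), CADM3 at 91.9 (68.5 to 71.4), GARS1 at 209 (199 to 201), COL17A1 at 51.8 (27.5 to 30.9) and PSMB9 at 64.5 (76.8 to 78.4). In replicate 2 of PE, PDPN was at 34.9 CPM (40.3 to 41.2). In replicate 3 of PE, HSD11B1 was at 26.4 CPM (14.5 to 16.4), WNT5A at 52.5 (38.8 to 40.7), DTNA at 0.0152 and EPHA3 at 0.0762, both at 0 in the other 3 libraries. In replicate 3 of PM, ACKR1 was at 0.644 CPM (0.157 to 0.216) and the top 100 genes took 22.6% of counts (23.2 to 23.3%). In replicate 4 of PM, TIMP3 was at 46.8 CPM (29.4 to 31) and KRT14 at 11 CPM (3.02 to 4.3). In each of these genes the libraries of the lines still did not overlap.

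For 11 of these 65 genes, the line difference with the CHD1 hairpins minus that with the GFP hairpin passed the edgeR interaction test. That test passed for 3.93% of all genes tested and 8.68% of those called with the GFP hairpin. The difference was positive, on the log2 scale, for LAD1 (3.875), CDH1 (3.27), COL17A1 (3.193), S100A14 (2.238), EPCAM (1.326), CADM3 (1.063), TNC (0.581) and POLR3G (0.513). It was negative for EREG (−1.088), SPARC (−0.601) and GARS1 (−0.439). COL17A1 was not called between the lines with the CHD1 hairpins (0.37), and the other 10 genes kept the direction seen with the GFP hairpin.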

How the results depend on the processing

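With 1 library left out in turn, the MYC change lay between 0.85 and 0.929 and the CHD1 difference between 0.144 and 0.224 on the log2 scale. Between 4297 and 4938 genes were called with the GFP hairpin (2172 to 2751 higher, 1887 to 2511 lower), and 1218 to 1362 of at least 2-fold (395 to 455 higher, 804 to 926 lower). With the CHD1 hairpins 9226 to 9618 were called (4538 to 4818 higher, 4548 to 4818 lower), and for the difference of both comparisons 548 to 944 (259 to 456 higher, 289 to 588 lower; the 289 without replicate 2 of PE). Over the other settings the GFP-hairpin calls lay between 4659 (compared groups fitted alone) and 5948. Testing only genes that reach 5 CPM in 4 libraries gave 724 calls of at least 2-fold (222 higher, 502 lower), with fewer genes tested. For the difference of both comparisons 588 genes were higher with library sizes alone and 643 with DESeq2's Wald test, against 369; library sizes alone moved the higher share from 45.1% to 64.3%. The cause was not tested. Of 213 single genes, 20 lost their call in at least 1 setting, and without replicate 2 of PE the uncalled differences of ODC1 (0.047) and KRT5 (0.029) changed sign, within ranges of −0.138 to 0.047 and −0.234 to 0.029 over the fits that leave out 1 library.

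Same-numbered libraries of PE and PM correlated in their deviations at 0.066, 0.087, 0.121 and 0.134. Replicate 2 of PE correlated slightly better with replicate 1 of PM (0.096) than with replicate 2 of PM (0.087). The labels state no pairing, so the main fit took none, and these correlations do not settle whether the numbers are pairs. All 4 same-number correlations are positive, while most pairs of different numbers were negative (−0.137 to 0.096). Over all 6 groups the median correlations of replicates 1 to 4 were 0.061, 0.13, 0.172 and 0.164, a hint that libraries of 1 number share something. The sample numbers in the column headers also run replicate by replicate over the 6 groups. The labels do not say what these numbers stand for. With a replicate block 5948 genes were called with the GFP hairpin, 5260 of them shared with the fit without it, and 1623 for the difference of both comparisons (642 higher, 981 lower). Counts of 1 or 2 members of a list in a direction often changed when a library was left out. The depth of replicate 1 of PE limits low genes.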
